A study of Mus musculus with 6 samples.

Results

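Peroxiredoxins, catalase, glutathione peroxidases and superoxide dismutases were followed in maturing mouse erythroid cells after depletion of Setd8. The members were Prdx1, Prdx2, Prdx3, Prdx5, Prdx6, Cat, Gpx1, Gpx4, Sod1 and Sod2, taken as every non-control probe that the array files name for these genes. That gave 16 probes of 55681 non-control probes, and 10 genes of 34844 gene names in the files. All cells were G1E-ER-GATA-1, a line of mouse erythroid progenitors without functional endogenous Gata1, in which a fusion of GATA-1 with the hormone-binding part of the estrogen receptor is switched on by β-estradiol. The SetD8 siRNA group (3 arrays) was transfected with siRNA against Setd8 (SetD8, current symbol Kmt5a), which encodes the histone H4 lysine methyltransferase. The control siRNA group (3 arrays) received a non-targeting siRNA. Transfection of both groups took place at 0 h and again after 24 h, when β-estradiol was added for the last 24 h, and cells were collected at 48 h, in medium with erythropoietin, Kit ligand and puromycin. Depletion was therefore read in 1 line, and the labels tell no more than 1 SetD8 siRNA reagent apart. The labels do not say whether the 3 arrays of a group stand for 3 cultures, so each p-value covers the spread among these arrays alone, and that spread may be technical.

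Red cells carry much oxygen and iron, and hemoglobin that oxidises by itself releases superoxide. Superoxide dismutases turn superoxide into hydrogen peroxide, and catalase, glutathione peroxidases and peroxiredoxins then remove the peroxide. Peroxiredoxins are mostly recharged by thioredoxin and glutathione peroxidases by glutathione, and both reductants draw on NADPH.

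The Gpx4 probe is shown because it gave the smallest p among the 16 after normexp and quantile normalization. The Gpx1 probe is shown because it reads the other selenium-dependent peroxidase of the group. The Cat probes are shown because only 1 of them, the one with a repeat, had groups that did not overlap after that normalization. Positions are on mm9 as the files give them. The Gpx4 probe lies on the plus strand at chr10:79518691-79518842, a listed span of 152 bases for a probe of 60 bases, and the Gpx1 probe on the plus strand at chr9:108242276-108242335. The first Cat probe lies on the minus strand at chr2:103297086-103300428, a listed span of 3343 bases, and the second on the minus strand at chr2:103294487-103294546. Of the second only bases 27 to 56 are printed, with a run of alternating C and A in capitals.
Gpx4: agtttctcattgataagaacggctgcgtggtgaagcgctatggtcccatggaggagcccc
Gpx1: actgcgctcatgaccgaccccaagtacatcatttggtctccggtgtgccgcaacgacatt
Cat, base 1411: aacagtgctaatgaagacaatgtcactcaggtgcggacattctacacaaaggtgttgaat
Cat, base 2065: cacatacCACACACACACACACAtgcaata
Base numbers such as 1411 and 2065 are the start positions in the transcript that the files list, and serve here to tell probes of a gene apart. The CA run of 16 bases in the second Cat probe is the reason for its separate treatment. That probe shared a run of at least 16 bases with 111 other probes of the array, 38 on the same strand and 73 on the opposite one. CA repeats of 12 or more bases stood in 0.314% of the array's probes, on either strand. Of the 16 member probes, 12 shared no such run with any other probe of the array. The Sod1 probe shared 37 bases with 1 other probe, the Prdx6 probe at base 1379 shared 28 bases with 1 probe of the opposite strand, and the Prdx5 probe at base 712 shared 17 bases with 1 probe.

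The arrays were Agilent arrays hybridised with Cy3-labelled cRNA in 1 colour, and 40.2% to 82.5% of their non-control spots were well above background. No array had a saturated spot (0 on each). Erythroid markers were measured well above background on all arrays for 12 of 12 genes in both groups. Megakaryocyte markers were so measured for 7 of 7 genes on the SetD8 siRNA arrays and 5 of 7 on the control siRNA arrays, with summed signals of 8782 to 25053 and of 9521 to 17018 intensity units. Granulocyte and macrophage markers reached that level for 4 of 8 genes in each group, and mast cell markers for 2 of 6 on SetD8 siRNA arrays and 1 of 6 on control siRNA arrays. Stromal and endothelial markers reached it for 4 of 6 genes on SetD8 siRNA arrays and 1 of 6 on control siRNA arrays, with summed signals of 2945 to 4163 and of 2613 to 3999. Lymphoid markers reached it for 4 of 6 genes on SetD8 siRNA arrays and 2 of 6 on control siRNA arrays, with summed signals of 2196 to 2581 and of 1121 to 2708. The mast cell gene Ms4a2 and the B cell gene Ms4a1 were not well above background on any array. Their part in the results below was not tested. As bulk RNA was measured, fewer cells of a type and less RNA per cell cannot be told apart.

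Values are given on 2 scales. On the first, log2 of the scanner's processed signal was taken minus the array's 75th percentile. On the second, normexp background correction was followed by quantile normalization between arrays, which gives all arrays the same distribution. Differences are SetD8 siRNA minus control siRNA throughout, in log2 units, with a limma standard error, and adjusted p-values are from limma with Benjamini-Hochberg adjustment over the 30982 probes kept, those whose signal was well above background throughout at least 1 group. All 16 member probes were well above background on all 6 arrays, so none entered through the signal of 1 group alone.

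Setd8 itself was measured first. At the 75th percentile scaling its brighter probe read 2.07, 1.82 and 1.83 on SetD8 siRNA arrays 1, 2 and 3, against 4.34, 4.95 and 3.14 on control siRNA arrays 1, 2 and 3. The groups did not overlap, and the difference was −2.24 ± 0.51 (SE; limma adjusted p = 0.931). After normexp and quantile normalization it was −2.08 ± 0.16 (SE; limma adjusted p = 0.0170). That call was lost with slide as a block (−2.04; limma adjusted p = 0.0783) and with the replicate number as a block (limma adjusted p = 0.303). It was also lost without SetD8 siRNA array 1, 2 or 3 or control siRNA array 1 (limma adjusted p = 0.107, 0.176, 0.140 and 0.140), while with any 1 of the 6 arrays left out the difference lay between −2.19 and −2.01. The dimmer probe was lower on every SetD8 siRNA array as well, with a difference of −1.37 on the first scale and −1.13 on the second.

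No antioxidant enzyme probe passed the threshold of 0.05 on either scale. On the first scale, the 75th percentile scaling, 0 of the 16 probes were called, where limma called 0% of all 30982 probes, and an unadjusted p under 0.05 was found for 0 of the 16 and for 2.49% of all probes. After normexp and quantile normalization again 0 of 16 were called, where 0.32% of all probes were. On that second scale the 16 differences ran from −0.16 to 0.42 with a median of 0.05, beside a median of 0.01 over all probes tested, and 11 were positive. On the first scale they ran from −0.36 to 0.24 with a median of −0.12, beside 0.09 over all probes, and 4 were positive. The sign differed between the scales for 7 of the 16 probes.

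The scales differed in how tightly they held the enzymes. On the first scale the largest 95% interval bounds over the 16 probes were −1.33 and 1.24 in log2 units, which are 2.52-fold lower and 2.35-fold higher. After normexp and quantile normalization they were −0.61 and 0.72, or 1.53-fold lower and 1.65-fold higher. The enzymes' intervals thus stayed inside a doubling or halving for 16 of 16 probes on the second scale and for 1 of 16 on the first. The share of all probes with such intervals was not counted. The offset added in the background correction of the second scale also makes differences of dim probes smaller.

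**Figure D1:**
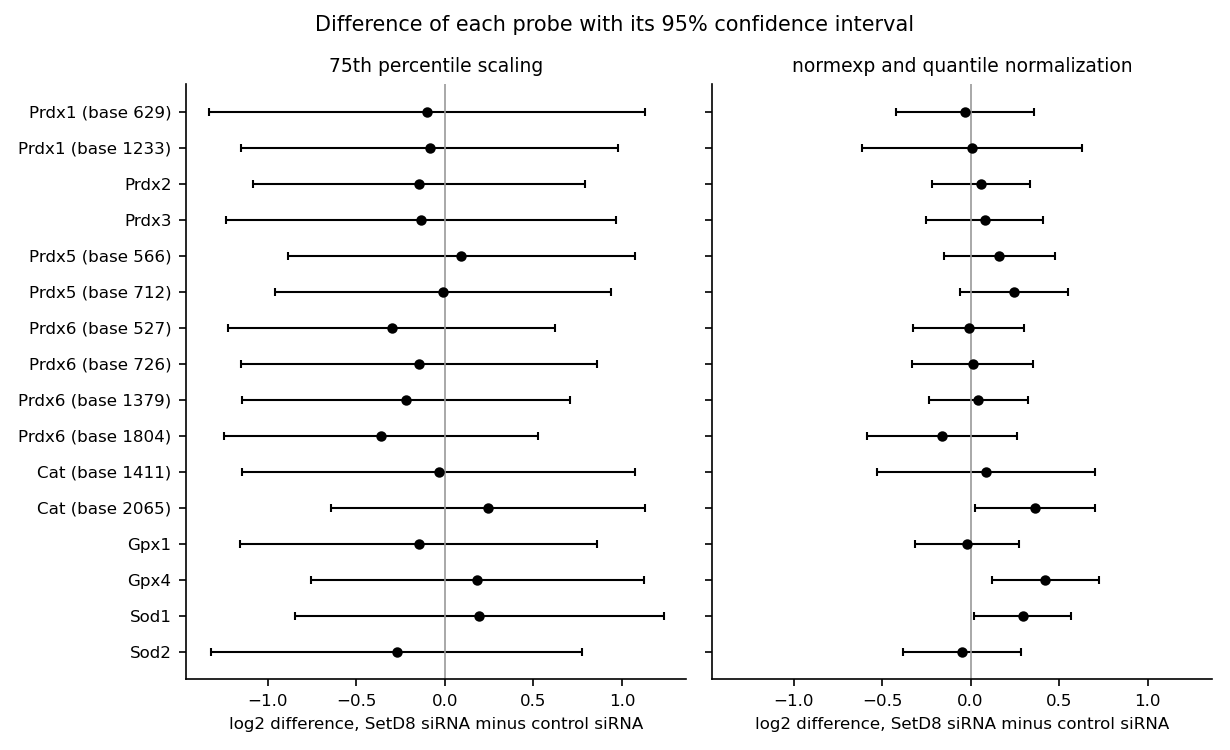
Log2 difference (x axis, SetD8 siRNA minus control siRNA) of each of the 16 antioxidant enzyme probes, with bars for the 95% confidence interval from limma, at the 75th percentile scaling (left) and after normexp and quantile normalization (right). On the right the intervals of Gpx4, Sod1 and the Cat probe at base 2065 lie above 0. The intervals are not adjusted for the number of probes, and no probe passed after adjustment.

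On the first scale most enzymes were high together on one control array and low together on another. Control siRNA array 2 was the highest of all 6 arrays for 15 of the 16 probes, and control siRNA array 3 the lowest of all 6 for 14. Taken as the deviation from each probe's own mean, the median over the 16 probes was −0.11, −0.03 and −0.01 on SetD8 siRNA arrays 1, 2 and 3, against 0.12, 0.65 and −0.63 on control siRNA arrays 1, 2 and 3. The control SD exceeded the SetD8 siRNA SD for 15 of 16 probes, with medians of 0.14 in the SetD8 siRNA group and 0.61 in the control group. Over all 30982 probes tested, the median residual SD of the limma fit was 0.54 on the first scale and 0.24 on the second. The wider spread on the first scale was thus not particular to the enzymes. The shares of all probes that were highest on control siRNA array 2 or lowest on array 3 were not counted. Control siRNA array 2 had 40.2% of spots well above background and array 3 had 82.5%, the lowest and the highest share of the 6. Control siRNA array 2 was also alone on its slide. After normexp and quantile normalization the median SDs were 0.12 in the SetD8 siRNA group and 0.09 in the control group, and the medians of the deviation lay between −0.07 and 0.11 over all arrays. The second scale was added because an earlier analysis of these data had found few calls on the first. Values by array are given on the second scale below. For the member probes the first-scale difference stands beside them.

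**Figure D2:**
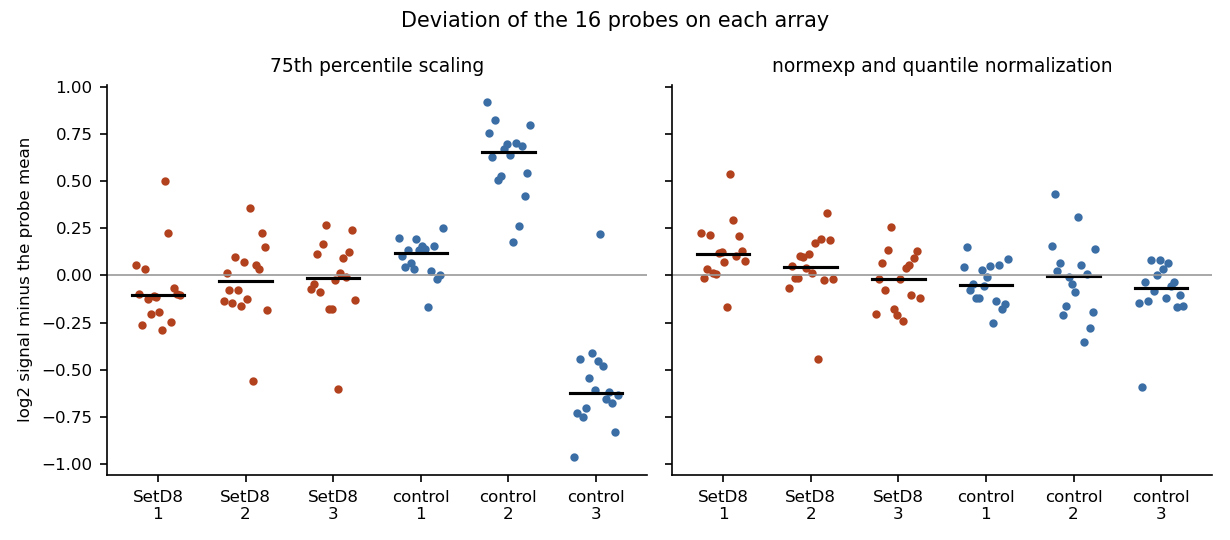
Deviation of each of the 16 probes from its mean over the 6 arrays (y axis, log2 units) by array, with a horizontal line at the median, at the 75th percentile scaling (left) and after normexp and quantile normalization (right). On the left, control siRNA arrays 2 and 3 have medians of 0.65 and −0.63, while the SetD8 siRNA arrays lie between −0.11 and −0.01.

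Among the peroxiredoxins, no difference passed the test. Prdx2, the thiol peroxidase that is abundant in red cells, was read at chr8:87498153-87498212 on the plus strand. It gave 16.51, 16.46 and 16.54 on SetD8 siRNA arrays 1, 2 and 3, against 16.40, 16.50 and 16.44 on control siRNA arrays 1, 2 and 3. The groups overlapped, with a difference of 0.06 ± 0.12 (SE; 95% interval −0.22 to 0.33), and −0.15 on the first scale. There it read 8.70, 8.89 and 9.08 on SetD8 siRNA arrays, against 9.01, 9.59 and 8.52 on control siRNA arrays, with the control values on both sides. Prdx2 ranked between 223 and 259 of 55681 probes on the 6 arrays, and quantile normalization gives each rank a fixed value.

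Prdx1, the other main cytosolic peroxiredoxin, was read by a probe at base 629 (chr4:116371818-116371877, plus strand) and one at base 1233 (chr4:116372422-116372481, plus strand). At base 629 it read 13.64, 13.35 and 13.21 on SetD8 siRNA arrays, against 13.46, 13.57 and 13.27 on control siRNA arrays. SetD8 siRNA array 1 was the highest and array 3 the lowest of all, so the groups overlapped fully (difference −0.03 ± 0.16, SE; 95% interval −0.42 to 0.36). The second Prdx1 probe, at base 1233, gave 7.98, 8.04 and 7.97 on SetD8 siRNA arrays, against 8.14, 8.42 and 7.40 on control siRNA arrays. Its control values lay on both sides of the SetD8 siRNA ones, and its difference was 0.01 ± 0.26 (SE). The first-scale differences were −0.10 at base 629 and −0.09 at base 1233, with standard errors of 0.52 and 0.45.

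Prdx3, the mitochondrial member of the family, was read at chr19:60940148-60940207 on the minus strand. Its probe was spotted 10 times on each array, with a coefficient of variation between spots of 1.29% to 3.25%. Its mean was 13.86, 13.63 and 13.57 on SetD8 siRNA arrays, against 13.60, 13.71 and 13.51 on control siRNA arrays. The groups overlapped, and the difference of 0.08 ± 0.14 (SE; 95% interval −0.25 to 0.41) became −0.13 at the 75th percentile scaling. The spread between spots within an array, with an SD of at most 0.05 on the log2 scale, was smaller than that between arrays, which was 0.15 in the SetD8 siRNA group and 0.10 in the control group.

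Prdx5, a peroxiredoxin found in mitochondria, peroxisomes and cytosol, was the peroxiredoxin with the largest difference on the second scale. At base 712 (chr19:6981198-6981256, minus strand) it read 13.76, 13.85 and 14.01 on SetD8 siRNA arrays, against 13.63, 13.59 and 13.67 on control siRNA arrays. Every SetD8 siRNA value was above every control value, with a difference of 0.24 ± 0.13 (SE; limma adjusted p = 0.605), but −0.01 at the 75th percentile scaling. At base 566 (chr19:6981371-6981430, minus strand) it read 12.59, 12.68 and 12.71 on SetD8 siRNA arrays, against 12.46, 12.37 and 12.66 on control siRNA arrays. Here control siRNA array 3 lay within the SetD8 siRNA range, and the difference was 0.16 ± 0.13 (SE; limma adjusted p = 0.791), and 0.09 on the first scale.

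Prdx6, which uses glutathione and also has phospholipase activity, was read by 4 probes on the minus strand of chromosome 1, at chr1:163171138-163171197 (base 1379), chr1:163171791-163171850 (base 726), chr1:163173715-163173774 (base 527) and chr1:163170713-163170772 (base 1804). The probe at base 1379 gave 14.85, 14.79 and 14.76 on SetD8 siRNA arrays, against 14.77, 14.69 and 14.81 on control siRNA arrays, which overlapped. The probes at bases 1379, 726 and 527 had differences of 0.04, 0.01 and −0.01, with standard errors of 0.12, 0.14 and 0.13. At base 726 Prdx6 read 14.49, 14.48 and 14.16 on SetD8 siRNA arrays, against 14.31, 14.32 and 14.45 on control siRNA arrays. At base 527 it read 14.17, 14.09 and 13.87 on SetD8 siRNA arrays, against 14.08, 14.04 and 14.05 on control siRNA arrays. SetD8 siRNA array 3 was thus the lowest of the 6 at both of these probes, while at base 1379 it lay between control values. The probe at base 1804 had the lowest signal rank of the 16 (16884 to 23137 of 55681) and read 6.95, 7.29 and 6.88 on SetD8 siRNA arrays, against 7.17, 7.43 and 7.00 on control siRNA arrays. These values overlapped, with a difference of −0.16 ± 0.18 (SE). On the first scale the 4 differences were −0.22, −0.15, −0.30 and −0.36 in the same order of probes, with standard errors of 0.37 to 0.42.

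**Figure D3:**
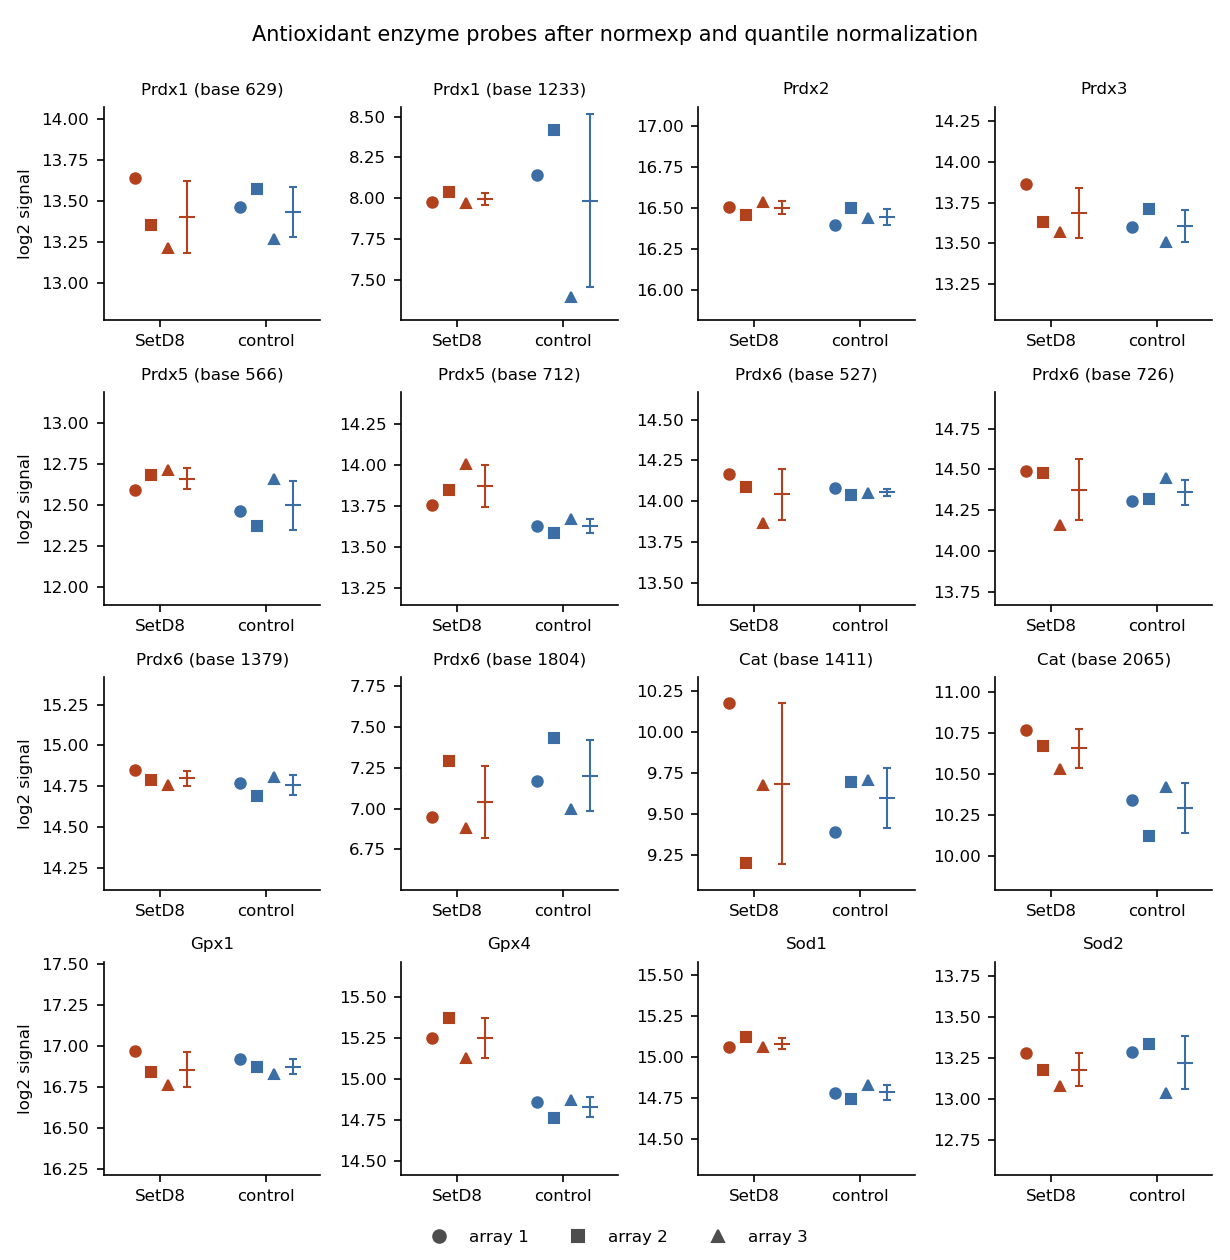
Log2 signal after normexp and quantile normalization (y axis; each panel spans the same range of log2 units) of the 16 probes on the 3 SetD8 siRNA arrays (left, red) and the 3 control siRNA arrays (right, blue), with the mean and SD (n = 3) beside the points; numbers in titles are the listed start positions. The groups do not overlap for Gpx4, Sod1, the Cat probe at base 2065 and the Prdx5 probe at base 712.

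Catalase, the heme enzyme that splits hydrogen peroxide, had groups that did not overlap at 1 of its 2 probes on the second scale, and the difference between the probes was not tested. At base 1411 Cat read 10.18, 9.20 and 9.68 on SetD8 siRNA arrays, against 9.39, 9.70 and 9.71 on control siRNA arrays. SetD8 siRNA array 1 was the highest and array 2 the lowest of the 6, and the difference was 0.09 ± 0.26 (SE; 95% interval −0.53 to 0.70). At base 2065, the probe with the CA repeat shown above, it read 10.77, 10.67 and 10.53 on SetD8 siRNA arrays, against 10.34, 10.12 and 10.42 on control siRNA arrays. All SetD8 siRNA values were above all control values, and the difference was 0.36 ± 0.14 (SE; 95% interval 0.02 to 0.70; limma adjusted p = 0.431). It was 0.38 within slide 1 and 0.11 within slide 3, the slides that held both groups. How much of the signal of this probe came from transcripts that share its repeat was not tested. The first-scale differences were 0.24 at base 2065 and −0.04 at base 1411.

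Of the glutathione peroxidases, both of which carry selenocysteine, Gpx4 had groups that did not overlap on the second scale and Gpx1 had overlapping ones; the difference between the genes was not tested. Gpx4, which reduces lipid hydroperoxides in membranes, read 15.25, 15.37 and 15.13 on SetD8 siRNA arrays, against 14.86, 14.76 and 14.87 on control siRNA arrays. The groups did not overlap, with means of 15.25 ± 0.12 in the SetD8 siRNA group and 14.83 ± 0.06 in the control group (SD, n = 3 each). The difference was 0.42 ± 0.13 (SE; 95% interval 0.12 to 0.72), a ratio of 1.34, with a limma adjusted p of 0.281. Slide 1 alone gave 0.45 and slide 3 alone 0.27, while a fit that took slide as a block gave 0.37 (limma adjusted p = 0.556). With trend and robust moderation it passed (limma adjusted p = 0.0299), as it did with array weights (0.39; limma adjusted p = 0.0436). The 15 alternatives run included a switch to the first scale, which gave 0.18 (limma adjusted p = 0.931). The others, all on the second scale, gave differences between 0.36 and 0.48, with a limma adjusted p from 0.0299 to 0.713. The first-scale values of Gpx4 were 7.50, 7.79 and 7.69 on SetD8 siRNA arrays, against 7.55, 7.99 and 6.89 on control siRNA arrays. The groups overlapped there, and the difference of 0.18 ± 0.40 (SE) turned to −0.11 without control siRNA array 3. Under median scaling it was −0.32, where the median of all probes tested was itself at −0.41.

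Gpx1, the cytosolic enzyme that reduces hydrogen peroxide, read 16.97, 16.84 and 16.76 on SetD8 siRNA arrays, against 16.92, 16.87 and 16.83 on control siRNA arrays. The groups overlapped, and the difference was −0.02 ± 0.12 (SE; 95% interval −0.31 to 0.27) and −0.15 on the first scale. Gpx1 read 9.29, 9.57 and 9.53 there on SetD8 siRNA arrays, against 9.69, 10.22 and 8.92 on control siRNA arrays, the control values again lying on both sides. Gpx1 ranked between 124 and 172 of 55681 probes, nearer the top than any other member probe.

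Of the superoxide dismutases, Sod1 had groups that did not overlap on the second scale and Sod2 had overlapping ones; the difference between the genes was not tested. Sod1, the copper and zinc enzyme of the cytosol, was read at chr16:90226509-90226568 on the plus strand. It gave 15.06, 15.12 and 15.06 on SetD8 siRNA arrays, against 14.78, 14.74 and 14.83 on control siRNA arrays. The groups did not overlap, and the difference was 0.29 ± 0.11 (SE; 95% interval 0.02 to 0.57), a ratio of 1.23, with a limma adjusted p of 0.429. It was 0.30 within slide 1 and 0.23 within slide 3. The first-scale values of Sod1 were 7.58, 7.83 and 7.92 on SetD8 siRNA arrays, against 7.68, 8.22 and 6.85 on control siRNA arrays, with overlap. The difference was 0.19 ± 0.44 (SE) there and −0.17 without control siRNA array 3. Under median scaling it was −0.30, where the median of all probes tested was at −0.41. The Sod1 probe shared 37 bases with 1 other probe of the array, and how much of its signal came from other transcripts with that run was not tested. Sod2, the manganese enzyme of mitochondria (chr17:13208074-13208133, plus strand), read 13.28, 13.18 and 13.08 on SetD8 siRNA arrays, against 13.29, 13.34 and 13.04 on control siRNA arrays, with a difference of −0.05 ± 0.14 (SE; 95% interval −0.38 to 0.29), and −0.27 on the first scale.

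In all, 4 of the 16 probes had groups that did not overlap on the second scale, all of them higher in the SetD8 siRNA group, where 9.19% of all probes tested did so in that direction and 8.66% in the other. None did on the first scale (0 of 16), where the share over all probes was 7.57%. For each of the 4 probes the exact two-sided permutation p over the arrays was 0.1, the smallest that 3 against 3 arrays allow. An unadjusted limma p under 0.05 was found for 3 of them, Gpx4, Sod1 and the Cat probe at base 2065, where 10.4% of all probes had one.

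The genes whose best probe was most like that of Gpx4 over the 6 arrays on the second scale, among 14412 genes compared, were Dnajc18, Mapk3 and Etfb, with Pearson correlations of 0.999, 0.996 and 0.996. These are descriptions over 6 arrays, chosen as the highest of many. Gpx4 was itself picked for its small p between the groups. Differences in the same direction in the 3 genes below therefore follow from the choice. Mapk3, the kinase ERK1, read 11.38, 11.57 and 11.22 on SetD8 siRNA arrays, against 10.74, 10.67 and 10.75 on control siRNA arrays. Etfb, an electron transfer flavoprotein subunit, had a difference of 0.57 and Dnajc18, of the J-domain family of chaperone partners, of 0.31. None of the 3 passed the threshold (limma adjusted p from 0.135 to 0.420).

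Other genes of the pathway were taken from 7 lists, and up to 4 genes with the smallest p are named from each. Of 97 list genes on the array 78 passed the filter. On the second scale 0 of them were called higher, where 0.297% of all probes were, 1 was called lower, where 0.0226% were, and 77 did not pass. Their median difference was 0.03 beside 0.01 over all probes. Groups did not overlap for 21 of the 78, higher in the SetD8 siRNA group, and for 7, lower. Of all probes, 9.19% and 8.66% did so. An unadjusted limma p under 0.05 was found for 18 of the 78 and for 10.4% of all probes. On the first scale 4 were higher and 2 lower without overlap, beside 7.57% of all probes, both directions together. List genes were read by their brightest kept probe, and the difference from all probes was not tested. The gene called lower was Me1, cytosolic malic enzyme, which makes NADPH. It read 7.96, 8.01 and 8.15 on SetD8 siRNA arrays, against 8.99, 8.91 and 8.98 on control siRNA arrays, a difference of −0.92 ± 0.12 (SE; limma adjusted p = 0.0491), and its 3 probes lay between −0.93 and −0.91. On the first scale the difference was −1.24 ± 0.35 (SE; limma adjusted p = 0.931). The call was lost with slide as a block (−0.93; limma adjusted p = 0.170) and on leaving out any 1 array (limma adjusted p from 0.0711 to 0.344), with the difference then between −0.98 and −0.88.

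Of the 3 measured genes of the peroxidase and dismutase families outside the members, 0 passed, with a median difference of −0.11. Ccs, the copper chaperone that loads Sod1, read 12.84, 13.02 and 13.16 on SetD8 siRNA arrays, against 12.35, 12.23 and 12.57 on control siRNA arrays. Its groups did not overlap (difference 0.63 ± 0.15, SE; limma adjusted p = 0.192). They overlapped on the first scale, with a difference of 0.45 ± 0.39 (SE). Gpx2, a glutathione peroxidase best known from gut epithelium, and Prdx4, the peroxiredoxin of the endoplasmic reticulum, had differences of −0.34 and −0.11 with overlapping groups. The other 7 genes of that list, which included Gpx3 and Sod3, did not pass the filter on dim probes.

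Of 12 thioredoxin system genes 0 passed, with a median of 0.01. Txn1, the thioredoxin that recharges cytosolic peroxiredoxins, read 12.07, 12.03 and 12.11 on SetD8 siRNA arrays, against 12.78, 13.00 and 12.67 on control siRNA arrays. The groups were well apart on this second scale, with a difference of −0.74 ± 0.14 (SE; limma adjusted p = 0.0990), and −0.66 with slide as a block (limma adjusted p = 0.289). At the 75th percentile scaling the groups overlapped. The difference there was −0.91 ± 0.49 (SE), with −0.99 within slide 1 and 0.07 within slide 3. On the second scale Txn1 passed when the test was limited to probes above background on each of the 6 arrays (limma adjusted p = 0.0418), with trend and robust moderation (limma adjusted p = 0.00845) and with array weights (limma adjusted p = 0.00635). It did not pass with the replicate number as a block (limma adjusted p = 0.424). Sesn2, a stress-induced sestrin, read 11.80, 12.45 and 11.95 on SetD8 siRNA arrays, against 10.91, 10.63 and 11.21 on control siRNA arrays. Its difference of 1.15 ± 0.23 (SE; limma adjusted p = 0.123) was the largest positive one among the 78 list genes on the second scale, and it was 1.02 ± 0.37 (SE) on the first. Txnrd2, mitochondrial thioredoxin reductase, and Nxn, nucleoredoxin, had differences of 0.30 and 0.27 with groups that did not overlap. Both had overlapping groups on the first scale, with differences of 0.04 ± 0.39 and 0.29 ± 0.41 (SE).

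Of 17 glutathione genes 0 passed. On the second scale 13 had a positive and 4 a negative difference, with a median of 0.13, and on the first scale 10 were positive and 7 negative, with a median of 0.17. On the second scale Gstt2 and Gstz1, glutathione transferases, had differences of 0.66 ± 0.13 and 0.75 ± 0.16 (SE; limma adjusted p = 0.129 and 0.150). Ggct, a gamma-glutamyl cyclotransferase, had 0.69 ± 0.21 (SE; limma adjusted p = 0.293). The first-scale differences of Gstt2, Gstz1 and Ggct were 0.56 ± 0.42, 0.58 ± 0.38 and 0.66 ± 0.55 (SE). The groups overlapped there for Gstz1 and Ggct but not for Gstt2. Gclc, the catalytic subunit of the rate-limiting enzyme of glutathione synthesis, read 10.81, 11.01 and 10.87 on SetD8 siRNA arrays, against 11.57, 11.46 and 11.42 on control siRNA arrays. The groups did not overlap, and the difference was −0.59 ± 0.13 (SE; limma adjusted p = 0.146). They overlapped on the first scale, where it was −0.78 ± 0.42 (SE).

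Of 11 NADPH supply genes Me1 alone passed, and the median was 0.16. Nnt, the mitochondrial transhydrogenase that makes NADPH, had a difference of 0.89 ± 0.21 (SE; limma adjusted p = 0.168) at its brighter probe and 0.01 at its other probe, so its probes disagreed. Idh2, the mitochondrial NADP-dependent isocitrate dehydrogenase, had a difference of 0.51 ± 0.13 (SE; limma adjusted p = 0.212). Taldo1, transaldolase of the pentose phosphate pathway, had 0.34 ± 0.12 (SE; limma adjusted p = 0.381). On the first scale Idh2 was at 0.33 ± 0.43 and Taldo1 at 0.06 ± 0.44 (SE), with overlapping groups. The brighter Nnt probe was at 0.79 ± 0.44 (SE) there, without overlap.

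**Figure D4:**
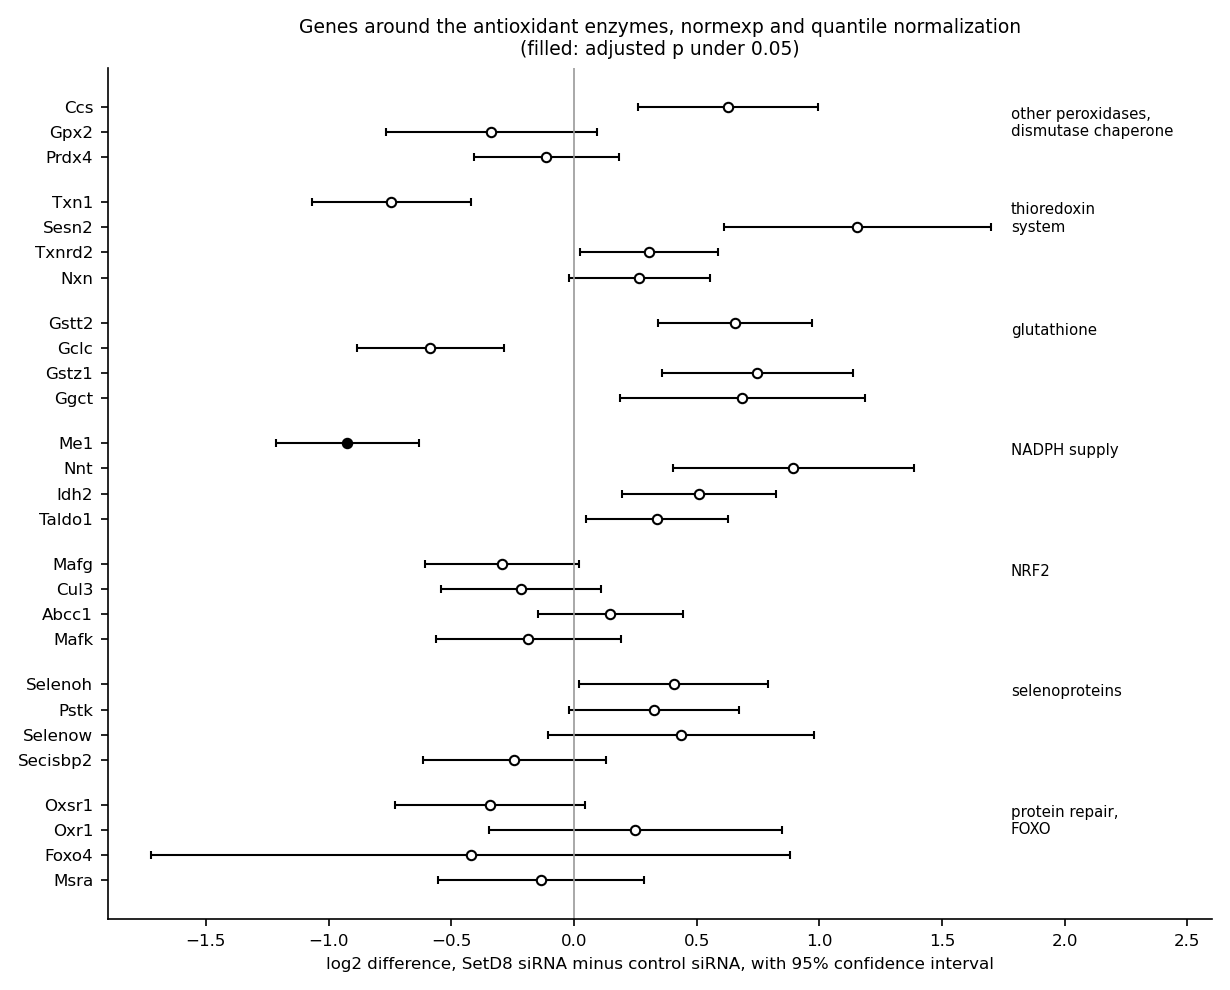
Log2 difference (x axis, SetD8 siRNA minus control siRNA, with bars for the 95% confidence interval from limma) of the 27 named genes of the 7 pathway lists after normexp and quantile normalization. Me1 at −0.92 is the one filled point, with an adjusted p under 0.05, and Sesn2 at 1.15 is the farthest to the right.

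Among 13 genes of NRF2 regulation, the transcription factor pathway that switches on antioxidant genes, 0 passed, and their differences stayed between −0.29 and 0.31, with a median of −0.07. Mafg, a small MAF partner of NRF2, was at −0.29 at its brightest probe, while its 4 kept probes ran from −0.29 to 0.08. Cul3, the ubiquitin ligase scaffold that acts with Keap1, was at −0.21, the small MAF protein Mafk at −0.19 and the exporter Abcc1 at 0.15. Among 16 genes of selenoprotein synthesis and other selenoproteins 0 passed, with a median of 0.00. The selenoproteins Selenow and Selenoh were at 0.44 and 0.41, Pstk, a kinase needed to make selenocysteine, at 0.33, and Secisbp2, which binds the selenocysteine insertion element, at −0.24. Selenow rested largely on SetD8 siRNA array 2, at 14.79 against 14.06 and 14.00 on SetD8 siRNA arrays 1 and 3: its difference of 0.44 ± 0.23 (SE) was 0.18 without that array. Among 6 genes of protein repair and FOXO regulation 0 passed and the median was −0.07, with Oxsr1, a stress-responsive kinase, at −0.34, the oxidation resistance gene Oxr1 at 0.25, the transcription factor Foxo4 at −0.42 and the methionine sulfoxide reductase Msra at −0.14. Foxo4, with a standard error of 0.55, was at 0.23 on the first scale, and its second-scale difference ran from −0.99 without control siRNA array 2 to 0.20 without control siRNA array 3. Oxr1, with a standard error of 0.25 and overlapping groups, ran from 0.02 without control siRNA array 3 to 0.50 without control siRNA array 2. On the first scale Oxr1 was at 0.84 ± 0.40 (SE; limma adjusted p = 0.931), with groups that did not overlap. Its probe was dim, with processed signals of 57, 38 and 65 on SetD8 siRNA arrays, against 30, 38 and 30 on control siRNA arrays. Msra ran from −0.26 to −0.03 on the second scale with 1 array left out. Of the 27 named list genes, Foxo4 alone changed sign between the scales or with 1 array left out.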

How the data were processed

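RNA from 3 SetD8 siRNA and 3 control siRNA samples had been hybridised to 1-colour Cy3 arrays. Per the file headers, Agilent Feature Extraction 10.7.3.1 made the deposited linear intensity of each spot, and its processed signal is background-subtracted and detrended. The authors' deposited value table equals that signal within 0.006 intensity units. The submitters' processing notes name limma without a version. The authors' normalization between arrays is not given in the sources used.

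Control spots and spots marked as outliers were left out, and spots of a probe averaged. Log2 values were computed here from the deposited intensity in 2 ways: the processed signal minus the array's 75th percentile, and normexp (offset 50) on mean signal and median local background with quantile normalization. The offset makes differences of dim probes smaller. Probes whose signal was well above background throughout at least 1 group were tested with limma 3.58.1 in R 4.3.3 (lmFit, eBayes, two-sided, Benjamini-Hochberg, threshold 0.05). Other steps used Python 3.11.15, pandas 2.3.3 and scipy 1.17.1, and figures matplotlib 3.10.9. Groups and replicate numbers came from sample titles. List genes were matched by the files' names or through a reference gene table of GRCm38.p6, used for names alone, and read by the kept probe with the highest mean.

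The members, the pathway lists and the second scale were chosen with earlier results of these data known. Named genes were all members, Setd8, up to 4 genes per list with the smallest p, and the 3 genes most like the member probe with the smallest p. Alternatives were other filters, 1 probe a gene, moderation, array weights, the replicate number or slide as a block, other normalizations, an offset of 16, the series matrix values, and leaving out each array. Applying most of them to the lists and to Setd8 was added after seeing the data, on both scales for Setd8. The limma fit was tested on simulated data with 30982 probes: changes of 1 log2 unit were recovered for 0% of changed probes on the first scale and 45.6% on the second, and changes of 2 log2 units for 1.52% and 75.8%. Of the unchanged probes, 4 were called on the first scale and 9 on the second. The simulated noise was independent between probes, with the same SD in both groups. It lacked shifts shared by the probes of an array and unequal group SDs, so recovery in the real data may differ. Same-numbered arrays did not deviate together, with correlations of −0.26 to 0.08 on the first scale and −0.30 to 0.17 on the second. The number of arrays limits the precision. Slide 1 held SetD8 siRNA arrays 1 and 2 and control siRNA array 1, slide 3 held SetD8 siRNA array 3 and control siRNA array 3, and slide 2 held control siRNA array 2 alone.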

Additional observations from a re-analysis of the deposited data

How the results depend on the processing

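No member probe was called at the 75th percentile scaling under any of the 19 alternatives run. After normexp and quantile normalization 1 was called with trend and robust moderation and 1 with array weights, Gpx4 each time. With the replicate number as a block 0 member probes, 0 probes of the whole array and 0 list genes were called on the second scale. Leaving out 1 array gave 0 member calls on both scales, with the median difference of the 16 probes between −0.44 and 0.25 on the first and between 0.01 and 0.09 on the second. That median was −0.62 under median scaling and 0.64 within slide 3 on the first scale; for the second scale it was −0.12 at the 75th percentile. Median scaling shifted the median of all probes to −0.41, and scaling on probes well above background on all arrays shifted it to 0.22. Over all probes, calls at the 75th percentile scaling were 0, but 122 among probes well above background on all 6 arrays, 4 with trend and robust moderation, 5530 with array weights, 127 with slide as a block and 24 with normexp; leaving out 1 array gave 0 to 103, the 103 without control siRNA array 2. On the second scale 99 probes were called, but 355 among probes well above background on all 6 arrays, 795 with trend and robust moderation, 2524 with array weights, 0 with slide as a block, 24 with an offset of 16, and 0 to 102 without 1 array. List genes called, 1, became 2, 9 and 12 with the strict filter, trend and robust moderation and array weights, and 0 with slide as a block, an offset of 16, the 75th percentile scaling or any 1 array left out. The Setd8 difference lay between −2.74 and −1.84 with 1 array left out, and passed with the strict filter (−2.24), array weights (−2.42), slide as a block (−1.93), normexp (−2.24) and the second scale (−2.08). On the second scale it no longer passed when slide (−2.04) or the replicate number (−2.08) was a block or at the 75th percentile scaling (−2.24), and it lay between −2.19 and −2.01 with 1 array left out. With the strict filter and with slide as a block on the first scale, limma pooled the variance across probes. The standard error was then 0.41 and 0.50 in turn for Setd8, Gpx4 and Sod1 alike. The 122 and 127 calls and the Setd8 passes under these settings therefore did not rest on each probe's own spread. The causes of these changes were not tested.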
